A study of Mus musculus with 23 samples.

Results

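The glucocorticoid-responsive genes described here are 8 listed mouse genes: the receptor gene Nr3c1, the steroid-activating enzyme gene Hsd11b1, the targets Fkbp5, Tsc22d3, Zbtb16 and Sgk1, and the metallothionein genes Mt1 and Mt2. They were listed by name, with earlier results of these data known, from 47311 genes whose transcripts were summed in each library. All 8 were among the 19882 genes with enough counts to be tested. Their lowest counts in any library lay between 387 (Zbtb16) and 3632 (Nr3c1), so none was near the limit of detection.

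Glucocorticoids, corticosterone in the mouse, enter cells and bind the receptor that Nr3c1 encodes, which then moves to the nucleus and turns genes on or off. Hsd11b1 encodes a reductase that regenerates active corticosterone from its inert form inside fat and liver cells. Fkbp5 and Tsc22d3 are among the most used readouts of the hormone, and in fat the hormone acts on lipid storage, fat cell formation and inflammation. Metallothioneins bind zinc and copper, and their genes respond to metals as well as to glucocorticoids.

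The tissue was tumor-adjacent mammary fat pad, and its RNA was measured in 23 female C57BL/6J mice, 1 library per mouse. Every mouse carried a tumor of luciferase-bearing E0771, a carcinoma line of mouse mammary origin, of which 250000 cells in 25% matrigel were put into mammary gland 4. Every mouse also received 200 µg of an antibody into the abdomen every 3 days from day 3 until it was killed on day 21. Some mice received anti-PD-1, an antibody against the checkpoint receptor that restrains T cells, and the others its isotype control, IgG2a. Between the ages of 8 and 26 weeks, obese mice ate food that drew 60% of its energy from fat. For lean mice 1 label gives 10% of energy from fat, although the treatment text of every sample describes only the high-fat food. IgG2a was given to 5 lean and 5 obese mice, and anti-PD-1 to 5 lean and 8 obese mice. There was no group without a tumor or without an antibody, and the labels do not state hormone levels or the hour of collection.

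Each library held 49438121 to 77369057 estimated counts, and 14806 (lean anti-PD-1 4) to 18403 genes had at least 10 counts. The fat cell gene Adipoq was high in every group (group means of 1457 to 2297 CPM, counts scaled to the same library size). Libraries fell into separate sets by 10 B cell genes, whose mean log2 CPM was 5.31 or more in 11 of them (a high score) and -0.71 or less in 12. Among IgG2a libraries 4 of 5 lean and 2 of 5 obese ones had a high score, and among anti-PD-1 libraries 3 of 5 lean and 2 of 8 obese ones did. Fits within 1 set thus rest on few libraries, with 1 lean IgG2a library of low score. A call lost in such a fit does not show that the difference was absent. Obese IgG2a 5 stood apart by its liver genes (score 8.88). In bulk tissue, fewer cells of a type and less RNA per cell cannot be told apart.

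Measured per transcript length (TPM, scaled to the same total in each library), the metallothioneins led the members. Mt1 averaged 317 TPM over the 23 libraries and Mt2 141 TPM. Hsd11b1 (124 TPM) and Tsc22d3 (107 TPM) followed, then Sgk1 (49.2 TPM), Nr3c1 (29.4 TPM) and Fkbp5 (29.3 TPM), and Zbtb16 was lowest at 15.6 TPM. On the CPM scale, the highest library exceeded the lowest by 34.8-fold for Zbtb16, 15.8-fold for Mt2 and 15.1-fold for Hsd11b1, against 3.60-fold for Sgk1. The plot of every library shows these spreads.

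**Figure D1:**
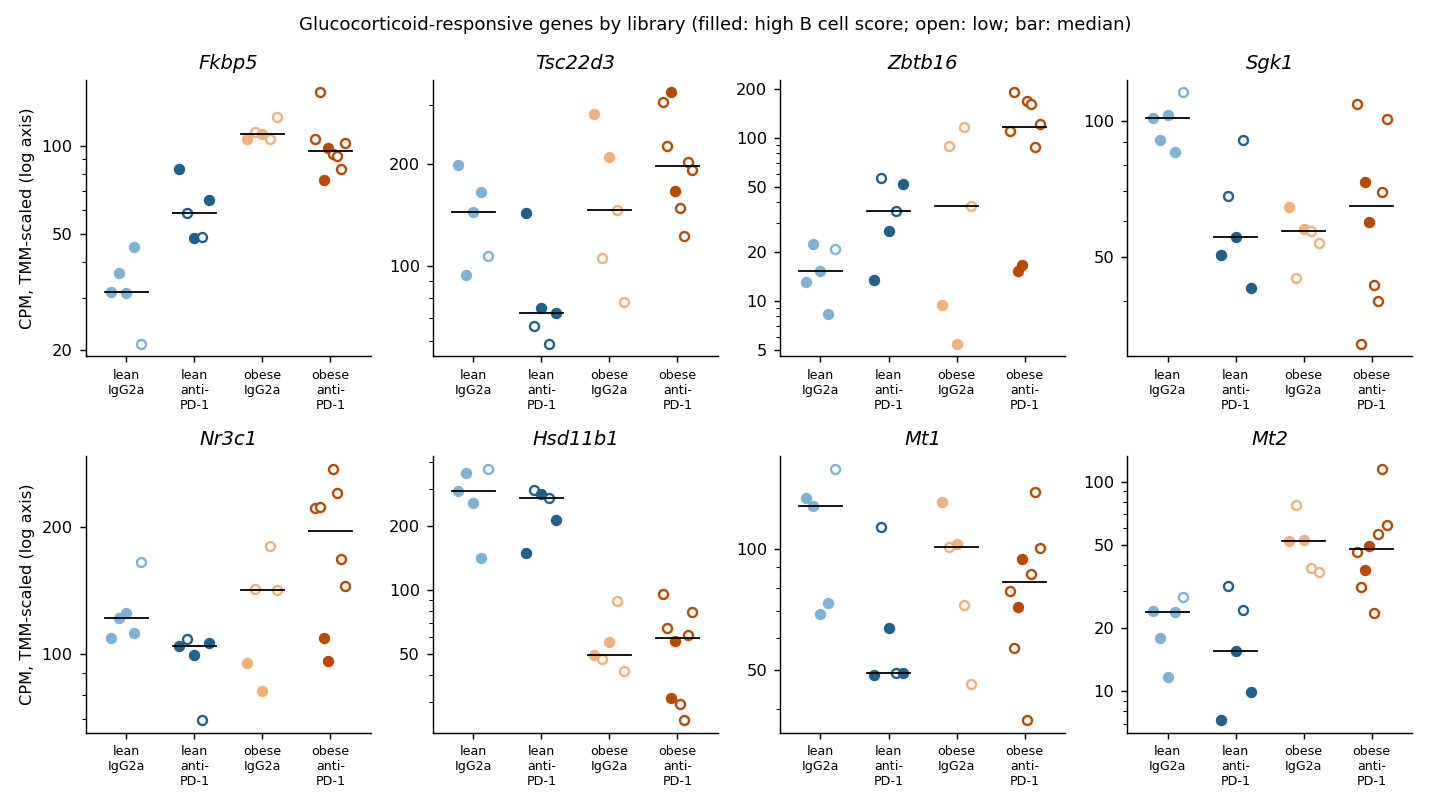
Level of each of the 8 genes in CPM (log axis) in every library, by group. Each point is 1 mouse, filled where the B cell score was high, and the bar is the group median. Hsd11b1 was lower in all 13 obese libraries than in all 10 lean libraries, and Zbtb16 spread over the widest range.

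The first question was how obesity changed these genes under each antibody. In IgG2a mice Fkbp5 rose and Hsd11b1 fell in obese against lean fat pad, which makes 2 of 8 members called at an adjusted p under 0.05, where 5.79% of all genes were called. Of all genes 2.68% rose and 3.12% fell there. In anti-PD-1 mice 5 of 8 were called, where 10.1% of all genes were. Fkbp5, Tsc22d3, Nr3c1 and Mt2 rose (5.2% of all genes did) and Hsd11b1 fell (4.85%). Zbtb16, Sgk1 and Mt1 passed in neither comparison. The members' median log2 fold change was 0.12 in IgG2a and 0.82 in anti-PD-1 mice, beside 0.12 and 0.08 over all genes tested. The obesity comparisons under IgG2a and under anti-PD-1 share no library, but both came from 1 fit of all 23 libraries. They thus share the estimate of the spread. Groups did not overlap for Fkbp5, Mt2, Hsd11b1 and Sgk1 in IgG2a mice (6.25% of all genes did not) and for Hsd11b1 alone in anti-PD-1 mice (4.82%). All calls are from edgeR's quasi-likelihood test with Benjamini-Hochberg adjustment over all genes tested.

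**Figure D2:**
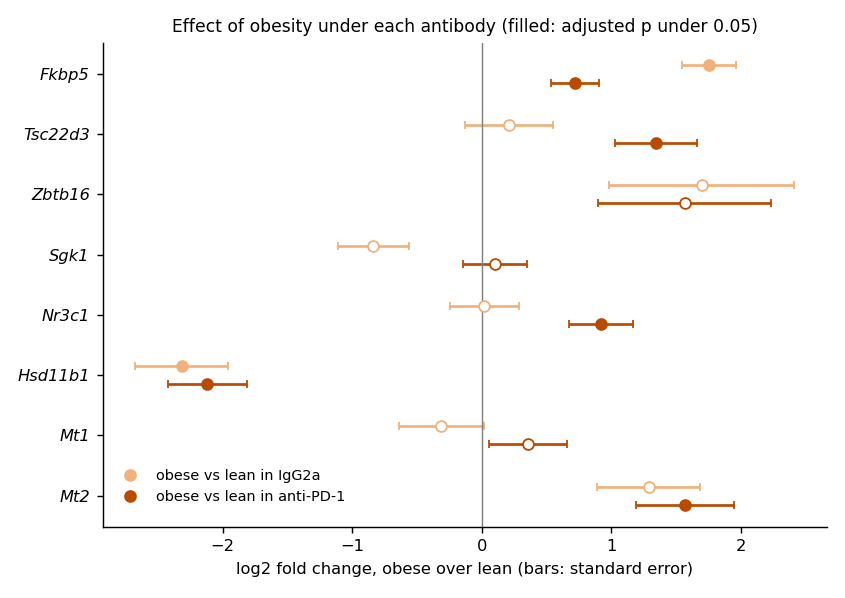
Log2 fold change (± SE) of each gene, obese against lean, in IgG2a mice (5 and 5) and anti-PD-1 mice (5 and 8). Filled points passed an adjusted p under 0.05. Fkbp5 lay above 0 and Hsd11b1 below 0 under both antibodies, at 1.76 and 0.72 for Fkbp5 and -2.32 and -2.12 for Hsd11b1.

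The direction of calls over all genes depended on the scale. On log2(TPM + 1), 88.2% of the genes called in anti-PD-1 mice were higher in obese mice, against 51.7% in the fit of counts, and in IgG2a mice the shares were 63.3% and 46.2%. On that scale the median over all genes lay 0.20 higher than in the fit of counts in anti-PD-1 mice and 0.07 higher in IgG2a mice, and log2 differences in TPM are read against those shifts. Genes of the mammary epithelium moved with obesity. In anti-PD-1 mice 8 of 8 epithelial markers were called lower (median log2 fold change -1.69), and in IgG2a mice 2 of 8 were (median -1.26). By edgeR's test in IgG2a mice, all 8 had an unadjusted p under 0.05, as did 3929 of 19882 genes. The mean log2 CPM of the 8 markers was 6.19 to 8.22 in lean and 4.32 to 6.62 in obese libraries. Within IgG2a mice it was 6.28 to 7.36 in lean and 4.73 to 5.78 in obese libraries. This score was tried as a covariate, but it nearly separated the diets, so that fit cannot tell epithelium from diet. For Nr3c1 in anti-PD-1 mice the SE was 0.36 with the covariate and 0.25 without it. A call lost with the covariate is therefore not shown to be an effect of epithelium. Skeletal muscle markers also fell in obese anti-PD-1 mice (5 of 8, and none of 8 was called in IgG2a mice). Their score was -3.07 to 8.23 in lean and -2.31 to 0.50 in obese anti-PD-1 libraries, and -1.39 to 8.30 in lean and -2.64 to 5.20 in obese IgG2a libraries. The part of muscle in the results was not tested.

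Hsd11b1 (ENSMUSG00000016194, chr1:193221634-193264075, minus strand, GRCm38) was the member whose lean and obese libraries did not overlap under either antibody. Its CPM values were 293.8, 354.6, 257.1, 142.1 and 372.1 in lean IgG2a libraries and 49.6, 47.5, 57.0, 89.2 and 41.9 in obese IgG2a libraries. In lean anti-PD-1 libraries they were 150.1, 294.1, 283.8, 270.4 and 212.8, and in the 8 obese anti-PD-1 libraries they ran from 24.6 through a median of 59.7 to 95.6. Every obese library was below every lean library. Hsd11b1 fell by 2.32 on the log2 scale (SE 0.36, 4.98-fold, adjusted p = 0.000447) in IgG2a mice. It fell by 2.12 (SE 0.30, 4.35-fold, adjusted p = 0.000118) in anti-PD-1 mice. Without any 1 library the fall stayed between 2.19 and 2.50 in IgG2a and between 2.01 and 2.26 in anti-PD-1 mice, and no alternative run ended either call. Lamb3, on the opposite strand across the same locus, averaged 6.06 TPM beside 124 TPM for Hsd11b1, and the libraries did not keep strand.

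Nr3c1 (ENSMUSG00000024431, chr18:39410545-39519421, minus strand), the receptor gene itself, was 109.1, 121.6, 125, 112 and 165.6 CPM in lean IgG2a and 95.3, 142.7, 81.6, 181 and 142.2 CPM in obese IgG2a libraries. The obese IgG2a values lay on both sides of the lean ones (log2 fold change 0.02, SE 0.27, adjusted p = 0.985). In lean anti-PD-1 libraries Nr3c1 was 104.6, 108.8, 99.3, 69.7 and 106 CPM, and in obese anti-PD-1 libraries it ran from 96.3 through 195.5 to 275.8 CPM. There 7 of 8 obese libraries lay above every lean one, and Nr3c1 rose 1.90-fold (log2 fold change 0.92, SE 0.25, adjusted p = 0.0204). The call was lost without lean anti-PD-1 4 (0.85, adjusted p = 0.0607), the library with the lowest Nr3c1 and the fewest genes. It was also lost with the epithelial score as a covariate (0.94, adjusted p = 0.195). Among libraries of high B cell score alone, the Nr3c1 value in anti-PD-1 mice was 0.05 (adjusted p = 0.923).

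Fkbp5 (ENSMUSG00000024222, chr17:28399094-28517527, minus strand) encodes a co-chaperone that holds the receptor in a state of low hormone affinity and is itself induced by the hormone. In lean IgG2a libraries it was 31.4, 36.6, 31.2, 44.8 and 20.95 CPM, and in obese IgG2a libraries 105.3, 111.7, 109.3, 105.6 and 125.8 CPM. The obese values were tightly grouped and all above the lean ones, and Fkbp5 rose 3.38-fold (log2 fold change 1.76, SE 0.21, adjusted p = 1.98e-05). Under anti-PD-1 the lean libraries had 83.5, 58.6, 48.3, 48.8 and 65.0 CPM, and the obese ones ran from 76.3 through 95.9 to 152.5 CPM. The highest lean library lay above the 2 lowest obese libraries, and the rise was 1.65-fold (0.72, SE 0.19, adjusted p = 0.0160). In anti-PD-1 mice the call was lost with the epithelial score as a covariate (0.54, adjusted p = 0.284). In separate fits it was also lost among libraries of high B cell score alone (0.46, adjusted p = 0.315), and without obese IgG2a 5 and lean anti-PD-1 4 together (0.65, adjusted p = 0.0574). In IgG2a mice no alternative run ended the Fkbp5 call.

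Tsc22d3 (ENSMUSG00000031431, chrX:140539528-140600659, minus strand) encodes GILZ, a leucine zipper protein that carries part of the anti-inflammatory action of glucocorticoids. It was 199.3, 93.8, 144.4, 165.9 and 107 CPM in lean IgG2a and 281.5, 105.6, 210.6, 146 and 78.1 CPM in obese IgG2a libraries. These ranges overlapped widely (log2 fold change 0.21, SE 0.34, adjusted p = 0.841). In lean anti-PD-1 libraries Tsc22d3 was 143, 66.5, 75.2, 58.7 and 72.3 CPM, with replicate 1 far above the rest. In obese anti-PD-1 libraries it ran from 122.7 through 197.1 to 326.6 CPM, and only the lowest of them lay under that lean library. Tsc22d3 rose 2.54-fold in anti-PD-1 mice (1.35, SE 0.32, adjusted p = 0.00983), and the call was lost with the epithelial score as a covariate (0.47, adjusted p = 0.474) and among libraries of high B cell score alone (1.41, adjusted p = 0.0748).

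Zbtb16 (ENSMUSG00000066687, chr9:48654297-48836222, minus strand) encodes PLZF, a transcription factor of innate-like lymphocytes that the hormone also induces in fat cell precursors. In lean IgG2a libraries it was 13.0, 22.1, 15.2, 8.33 and 20.8 CPM, and in obese IgG2a libraries 9.38, 89.3, 5.44, 115.8 and 37.8 CPM. The obese IgG2a libraries held both the lowest and the highest of these 10 values. In lean anti-PD-1 libraries Zbtb16 was 13.4, 56.4, 26.8, 35.5 and 51.9 CPM, and obese anti-PD-1 libraries ran from 15.2 through 116.1 to 189.6 CPM. The difference did not pass in IgG2a (log2 fold change 1.70, SE 0.72, adjusted p = 0.179) or anti-PD-1 mice (1.57, SE 0.67, adjusted p = 0.143).

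Sgk1 (ENSMUSG00000019970, chr10:21882184-21999903, plus strand) encodes a kinase that regulates ion channels and is rapidly induced by the hormone. It was 101.6, 90.7, 103.2, 85.6 and 115.8 CPM in lean IgG2a and 64.6, 44.9, 57.8, 57.2 and 53.8 CPM in obese IgG2a libraries. All obese values were below all lean ones, yet the difference did not pass over all genes (log2 fold change -0.84, SE 0.28, adjusted p = 0.0759). Fitted on the IgG2a groups alone, Sgk1 fell (-0.86, adjusted p = 0.0208). Lean anti-PD-1 libraries had Sgk1 at 50.6, 68.2, 55.4, 90.8 and 42.8 CPM, inside the obese anti-PD-1 range of 32.2 through 64.8 to 109 CPM (log2 fold change 0.10, SE 0.25, adjusted p = 0.880). On log2(TPM + 1), limma called Sgk1 higher in obese anti-PD-1 mice (1.01, adjusted p = 0.0348), with 21.2 to 30.6 TPM in lean and 22.1 to 93.9 TPM in obese libraries.

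Mt1 (ENSMUSG00000031765, chr8:94179082-94180327, plus strand) and Mt2 (ENSMUSG00000031762, chr8:94172664-94173568, plus strand) are neighbours that encode small cysteine-rich proteins. Mt1 was 133.4, 127.6, 69.0, 73.4 and 157.6 CPM in lean IgG2a and 130.1, 100.7, 102.7, 72.6 and 46.3 CPM in obese IgG2a libraries. In anti-PD-1 mice it was 48.7, 112.8, 63.6, 49.2 and 49.3 CPM in lean libraries and 37.7 through 82.5 to 138 CPM in obese ones. Mt1 ranges overlapped under both antibodies, with log2 fold changes of -0.31 (SE 0.33, adjusted p = 0.712) and 0.36 (SE 0.30, adjusted p = 0.530). On log2(TPM + 1), limma called Mt1 higher in obese anti-PD-1 mice (0.85, adjusted p = 0.0390).

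Mt2 was 24, 17.98, 11.7, 23.9 and 28.2 CPM in lean IgG2a and 52.2, 77.4, 52.9, 38.7 and 37.2 CPM in obese IgG2a libraries. The IgG2a groups did not overlap, but the difference of 2.44-fold just missed the threshold (log2 fold change 1.29, SE 0.40, adjusted p = 0.0585). In 10 alternatives Mt2 was called there, DESeq2's test among them (1.33, adjusted p = 0.0141), and in 5 others it was not. None of the 10 fits with 1 library left out called it (edgeR's test, adjusted p of 0.0523 to 0.1525). Lean anti-PD-1 libraries had Mt2 at 7.28, 31.7, 15.5, 24.4 and 9.89 CPM, and obese anti-PD-1 libraries ran from 23.5 through 47.7 to 115.2 CPM. The 2 lowest obese libraries lay within the lean range, and Mt2 rose 2.97-fold (1.57, SE 0.38, adjusted p = 0.0108). Among libraries of low B cell score alone, the Mt2 call in anti-PD-1 mice was lost (0.91, adjusted p = 0.272).

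The number of Mt2 counts per Mt1 count separated lean from obese libraries within each antibody, a ratio that was chosen after the values were seen. Mt2 alone separated them in IgG2a mice but not in anti-PD-1 mice, and Mt1 alone in neither. In IgG2a mice it was 0.141 to 0.325 in lean libraries (median 0.179) and 0.401 to 0.803 in obese libraries (median 0.534). In anti-PD-1 mice it was 0.150 to 0.497 in lean libraries (median 0.244) and 0.522 to 0.835 in obese libraries (median 0.601). Lean and obese libraries did not overlap under either antibody, but lean anti-PD-1 4 (0.497) lay above obese IgG2a 1 (0.401). The ratio was 3.07-fold higher in obese IgG2a mice and 2.41-fold higher in obese anti-PD-1 mice, given as a description with no test because it was chosen for this separation. A ratio of 2 genes within a library shows unequal change, not which of them changed.

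**Figure D3:**
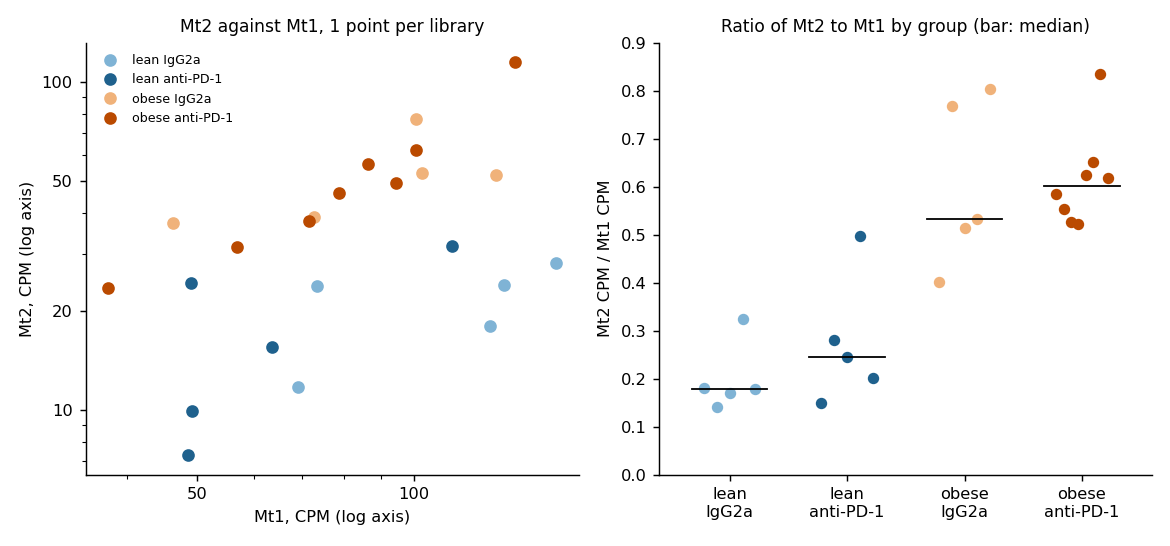
Mt2 against Mt1 in CPM (log axes) for each of 23 libraries, and the number of Mt2 counts per Mt1 count by group with the group median as a bar. Obese libraries had 0.401 or more Mt2 counts per Mt1 count under IgG2a and 0.522 or more under anti-PD-1, above the lean libraries of the same antibody (at most 0.325 and 0.497).

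The genes Mt1 and Mt2 are similar but were separable: their listed transcripts share no run longer than 20 bases. Their upstream regions are shown because the pair diverged in these libraries. RefSeq gave windows for 6 of the 8 members (13 windows, GRCm38.p6), and none was matched for Zbtb16 or Nr3c1. The metal response element core, TGCGCNC or TGCACNC on either strand, was found in 25.7% of 32851 windows of 300 bases (250 before to 50 after a start), and 7.11% held 2 or more. The Mt2 window held 4 matches and the Mt1 window 3, and these counts were not compared by a test. The starts used were those of RefSeq (94172618 for Mt2 and 94179089 for Mt1), which differ from the gene starts given above. The 250 bases before each start follow, 5′ to 3′ on the plus strand, with matches to that core in capitals, at chr8:94178839-94179088 for Mt1 and chr8:94172368-94172617 for Mt2.
Mt1: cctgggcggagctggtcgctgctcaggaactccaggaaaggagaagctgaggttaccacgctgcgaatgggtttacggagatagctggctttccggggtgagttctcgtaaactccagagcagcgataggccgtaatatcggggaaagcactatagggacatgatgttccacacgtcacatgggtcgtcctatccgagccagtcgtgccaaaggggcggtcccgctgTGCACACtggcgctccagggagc
Mt2: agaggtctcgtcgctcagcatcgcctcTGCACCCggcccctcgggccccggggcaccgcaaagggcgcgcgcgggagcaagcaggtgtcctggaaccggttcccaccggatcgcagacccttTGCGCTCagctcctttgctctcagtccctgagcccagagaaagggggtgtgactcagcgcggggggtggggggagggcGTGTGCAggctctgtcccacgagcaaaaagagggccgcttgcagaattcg
In the Mt1 stretch the 1 match begins 23 bases before the start, and the other Mt1 matches lie after it. In the Mt2 stretch the 3 matches begin 223, 128 and 50 bases before the start. How many matches fall before a start depends on the start used, which was not checked against the libraries. The stretches therefore do not show that Mt1 has fewer such matches upstream than Mt2. These matches are descriptions of the letters, and no binding was measured.

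Averaged over both antibodies, obese against lean, 5 of 8 members were called, 4 higher and 1 lower, where 18.8% of all genes were called, 10.6% higher and 8.15% lower. This average uses the same libraries as the comparisons within each antibody. Fkbp5 (log2 fold change 1.24, SE 0.14, adjusted p = 1.97e-06), Zbtb16 (1.63, SE 0.49, adjusted p = 0.0227), Mt2 (1.43, SE 0.27, adjusted p = 0.000910) and Tsc22d3 (0.78, SE 0.23, adjusted p = 0.0206) rose. Hsd11b1 fell by 2.22 (SE 0.24, adjusted p = 9.31e-07). Nr3c1 (0.47, SE 0.18, adjusted p = 0.0712), Sgk1 (-0.37, adjusted p = 0.1775) and Mt1 (0.02, adjusted p = 0.967) did not pass. DESeq2's test called Nr3c1 higher (0.49, adjusted p = 0.0298). The Zbtb16 call was lost without obese IgG2a 4 (1.36, adjusted p = 0.0533), by limma's voom (1.10, adjusted p = 0.202), on log2(TPM + 0.1) (1.52, adjusted p = 0.0533) and with the B cell (0.45, adjusted p = 0.392) or epithelial score (2.40, adjusted p = 0.101) as a covariate. The Tsc22d3 difference was 0.00 with the epithelial score as a covariate (adjusted p = 1.00). Within low-score libraries of B cell genes alone, the averaged calls of Mt2 (0.87, adjusted p = 0.232) and Tsc22d3 (0.79, adjusted p = 0.0872) were lost.

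The obesity difference of Zbtb16 and of Nr3c1 was not the same in libraries with a high and with a low B cell score. This fit of diet by B cell set was added after the data were seen. It called 15.1% of all genes in high-score libraries, 23.1% in low-score libraries and 11.6% for the difference between them. Zbtb16 ran from 8.33 through 15.2 to 51.9 CPM in 7 lean high-score libraries and from 5.44 through 12.3 to 16.5 CPM in 4 obese ones. In low-score libraries it was 20.8, 35.5 and 56.4 CPM in 3 lean libraries and 37.8 through 115.8 to 189.6 CPM in 9 obese ones. Zbtb16 rose with obesity in low-score libraries (1.73, SE 0.38, adjusted p = 0.00290), while the value in high-score libraries was -0.96 (SE 0.34, adjusted p = 0.0558). The difference between the sets was 2.69 (SE 0.51, adjusted p = 0.00367).

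Nr3c1 showed the same split at a smaller size. It ran from 99.3 through 109.1 to 125 CPM in lean and from 81.6 through 95.8 to 109.4 CPM in obese high-score libraries. In low-score libraries it was 69.7, 108.8 and 165.6 CPM in lean libraries and 142.2 through 181 to 275.8 CPM in obese ones. Nr3c1 rose by 0.75 (SE 0.23, adjusted p = 0.0232) in low-score libraries, and the value was -0.22 (adjusted p = 0.527) in high-score libraries, a difference of 0.97 (SE 0.31, adjusted p = 0.0439). For the other 6 members the difference did not pass.

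Fkbp5 and Hsd11b1 were called on both sides of the B cell score. Fkbp5 rose by 1.04 (adjusted p = 0.00505) in high-score and 1.40 (adjusted p = 0.00161) in low-score libraries. Hsd11b1 fell by 2.29 (adjusted p = 0.000113) and 2.38 (adjusted p = 1.54e-05). Mt2 rose by 1.65 in high-score libraries (adjusted p = 0.00177), with 0.95 (adjusted p = 0.0773) in low-score libraries. Tsc22d3 rose by 1.14 in low-score libraries (adjusted p = 0.0339), with 0.95 (adjusted p = 0.0501) in high-score libraries. The sets pool both antibodies, and only 3 lean libraries had a low score. Scores of other cell types moved with the split, above all among obese libraries. Fat cell scores were 9.17 to 10.48 in the 4 obese high-score and 10.1 to 12.03 in the 9 obese low-score libraries, fibroblast scores 5.13 to 5.97 and 6.13 to 7.59, and endothelial scores 5.12 to 5.62 and 5.25 to 7.03. Their part in the Zbtb16 and Nr3c1 differences was not tested.

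**Figure D4:**
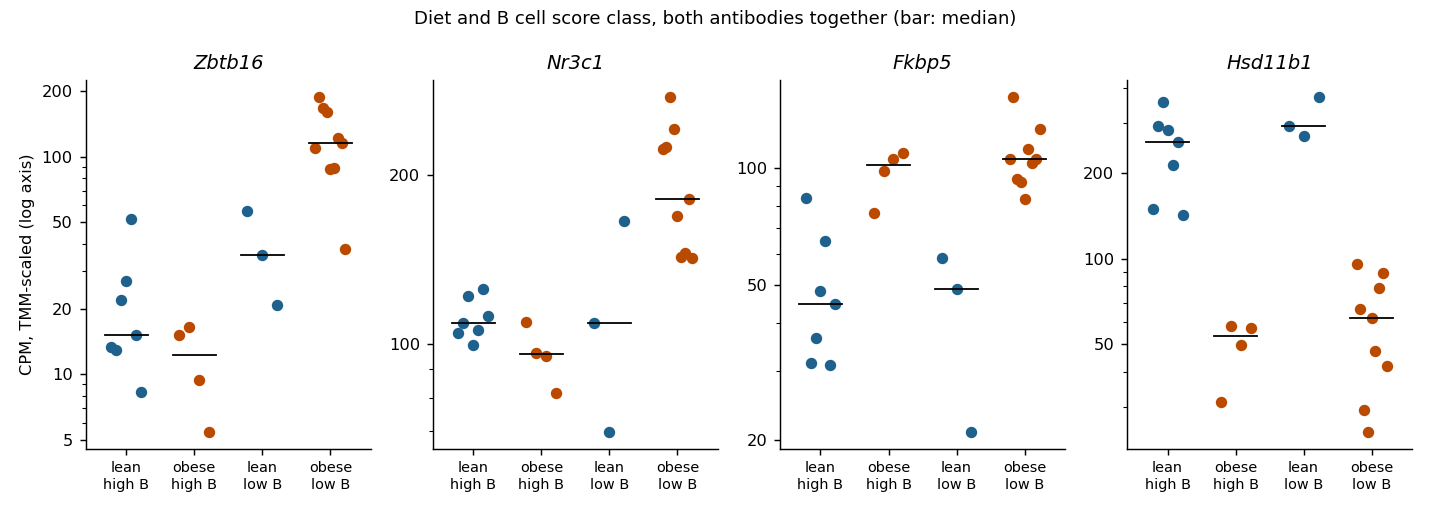
CPM (log axis) of Zbtb16, Nr3c1, Fkbp5 and Hsd11b1 in lean and obese libraries with a high (7 lean, 4 obese) or low (3 lean, 9 obese) B cell score. Points are libraries and bars are medians. The obese low-score libraries stood highest for Zbtb16 (median 115.8 CPM) and Nr3c1 (median 181 CPM), while Hsd11b1 was low in obese libraries of both sets.

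Anti-PD-1 against IgG2a called none of the members by edgeR's quasi-likelihood test. In lean mice 0% of all genes were called (472 genes had an unadjusted p under 0.05, and 4 members did), DESeq2 called 22 genes and voom none. In obese mice 0.538% of all genes were called (107 genes, 2700 at an unadjusted p under 0.05, among them 1 member), DESeq2 called 399 and voom none. These comparisons use the same libraries as the obesity comparisons. In lean mice Fkbp5 was higher with anti-PD-1 in all 5 libraries than in any IgG2a library and Nr3c1 lower in all 5, a separation that 0.553% of all genes showed. The Fkbp5 difference was 1.84-fold (log2 fold change 0.88, SE 0.20, unadjusted p = 0.000243, adjusted p = 1), and DESeq2's test called it (0.90, adjusted p = 0.0114). For Nr3c1 in lean mice the value was -0.38 (SE 0.27, adjusted p = 1). In obese mice the groups overlapped for all 8 members (0.111% of all genes did not overlap), and the values for Fkbp5 and Nr3c1 were -0.15 (SE 0.18, adjusted p = 0.780) and 0.53 (SE 0.24, adjusted p = 0.345).

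The difference of the obesity effect between antibodies was called for none of the members and for 0% of all genes by edgeR's quasi-likelihood test. It had an unadjusted p under 0.05 for 1449 genes, including Fkbp5, Tsc22d3, Sgk1 and Nr3c1, while DESeq2 called 50 genes and voom 1. For Fkbp5 the obesity effect was smaller with anti-PD-1 by 1.03 on the log2 scale (-1.03, SE 0.27, adjusted p = 0.396), which DESeq2's test called (-1.08, adjusted p = 0.0436). The values were 1.14 for Tsc22d3 (SE 0.46, adjusted p = 0.624), 0.94 for Sgk1 (SE 0.37, adjusted p = 0.617) and 0.90 for Nr3c1 (SE 0.36, adjusted p = 0.618). So the calls of Tsc22d3, Nr3c1 and Mt2 under anti-PD-1 and not under IgG2a are not shown to differ between the antibodies.

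Whether the transcripts of a gene moved together was asked with the share of its TPM held by its most abundant transcript, in the 5 members with several transcripts (10 tests, exact permutation, two-sided, adjusted over the 10). In anti-PD-1 mice the share of Sgk1-201 was 81.7% ± 14.3 (SD, n = 5) in lean and 45.1% ± 21.98 (SD, n = 8) in obese libraries (exact permutation test, adjusted p = 0.0311). Nr3c1-204 held 96.1% ± 4.17 (SD, n = 5) in lean and 80.0% ± 13.6 (SD, n = 8) in obese anti-PD-1 libraries (exact permutation test, adjusted p = 0.0311). Tsc22d3-201 held 84.7% and 67.4% (exact permutation test, adjusted p = 0.0881). Fkbp5-201 held at least 90.8% of Fkbp5 on average in every group, and Hsd11b1-205 held 53.3% to 62.7%. No member passed in IgG2a mice, where Sgk1-201 went from 67.4% ± 18.5 (SD, n = 5) to 53.2% ± 25.0 (SD, n = 5; exact permutation test, adjusted p = 0.533).

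All Sgk1 transcripts together averaged 27.4 TPM in lean and 60.8 TPM in obese anti-PD-1 libraries. A short retained-intron transcript, Sgk1-209 (347 bases), made up part of that rise, with 2.18 TPM in lean and 18.8 TPM in obese libraries. The full-length Sgk1-201 averaged 22.5 and 25.7 TPM, and Sgk1-202, which starts upstream of it, 1.77 and 7.74 TPM. Both transcript calls were lost without lean anti-PD-1 1, 2, 3 or 4, or without obese anti-PD-1 1, 2, 5, 6 or 7 (0 of 10 called). With shares of estimated counts in place of TPM, 1 of 10 was called and the Sgk1 call was lost. Shares of transcripts are estimates, and RNA quality was known only as an integrity number above 5.

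**Figure D5:**
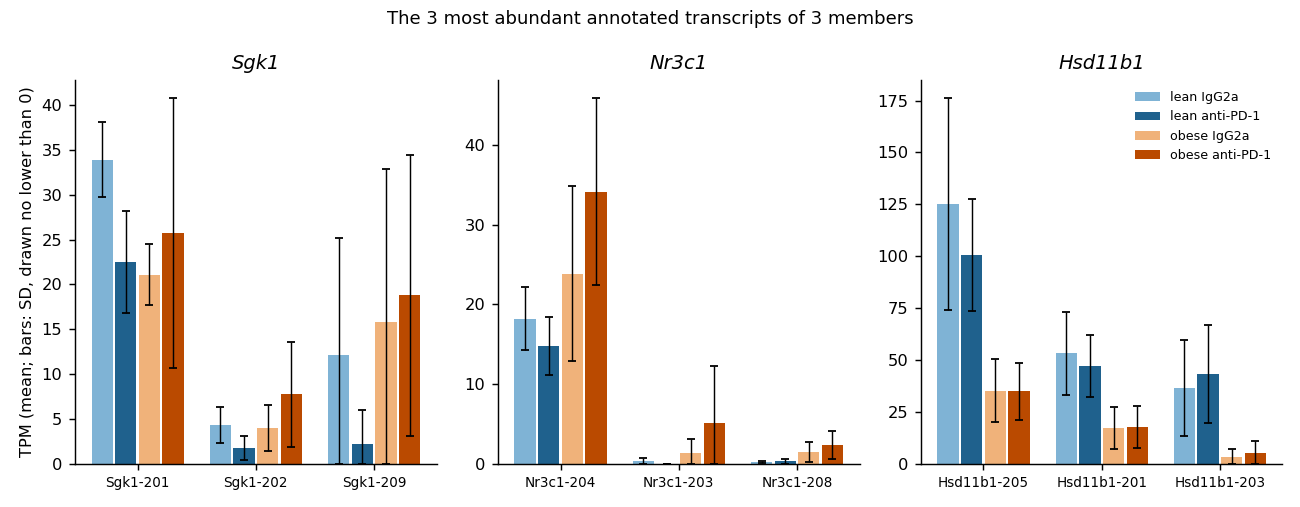
Mean TPM (± SD over the libraries of a group) of the 3 most abundant transcripts of Sgk1, Nr3c1 and Hsd11b1 in each group. Sgk1-209 averaged 2.18 TPM in lean anti-PD-1 and 18.8 TPM in obese anti-PD-1 libraries, and Nr3c1-204 carried most of Nr3c1 in every group.

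The window before Sgk1-202 is shown because it holds the full palindrome bound by the glucocorticoid receptor, AGAACA and TGTTCT with NNN between them, which reads the same on both strands. Only 3 of 32851 windows of 300 bases hold it (0.00913%). It begins 189 bases before the start of Sgk1-202 (capitals), in chr10:21993640-21993889 on the plus strand. The looser form, GNACA and TGTNC with NNN between them, which includes the full one, was found in 156 windows (0.475%), among them the same Sgk1 window and that of Mt1, 94 bases before its start.
Sgk1: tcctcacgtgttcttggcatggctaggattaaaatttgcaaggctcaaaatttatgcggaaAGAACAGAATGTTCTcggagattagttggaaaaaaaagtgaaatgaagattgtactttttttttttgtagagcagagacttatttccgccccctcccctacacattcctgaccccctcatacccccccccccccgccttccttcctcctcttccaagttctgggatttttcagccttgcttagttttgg
A match describes these letters, and binding was not measured in these libraries.

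Members were then compared across mice within groups, as correlations of log2 CPM after subtraction of group means, over 28 pairs. Since libraries fell into 2 sets by B cell score, values are given within each set of 11 (lean IgG2a 5, the only low-score library of its group, was left out). In low-score libraries Mt1 and Mt2 varied together (Pearson r = 0.901, Spearman rho = 0.864, permutation tests within groups, adjusted p = 0.0118 and 0.00728, and r = 0.813 without the 2 libraries farthest in Mt1). In high-score libraries r was 0.532 and rho 0.536 for Mt1 and Mt2 (permutation tests, adjusted p = 0.679 and 0.700). Tsc22d3 and Hsd11b1 also varied together in low-score libraries (r = 0.919, rho = 0.918, permutation tests, adjusted p = 0.0118 and 0.0188, r = 0.847 without 2 libraries). In high-score libraries the value for Tsc22d3 and Hsd11b1 had the other sign (r = -0.708, rho = -0.709, permutation tests, adjusted p = 0.526 and 0.483), and the difference between the sets was not tested. Zbtb16 and Nr3c1 gave r of 0.615 (rho 0.718, permutation tests, adjusted p = 0.380 and 0.287) in low-score and 0.407 (rho 0.555, adjusted p = 0.679 and 0.614) in high-score libraries.

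Other genes of the same biology were counted from lists. Of 24 further glucocorticoid targets, 1 rose and 3 fell in obese IgG2a mice, and 4 rose and 1 fell in obese anti-PD-1 mice. Over all genes 5.79% were called in IgG2a mice (2.68% higher, 3.12% lower) and 10.1% in anti-PD-1 mice (5.2% higher, 4.85% lower), and the counts of this and the next lists are read against those shares. The median log2 fold change of these targets was 0.02 and 0.35, beside 0.12 and 0.08 over all genes. Cebpb, a transcription factor of fat cell formation, fell under both antibodies. In IgG2a mice it was 166.7 to 294.7 CPM in lean and 85.0 to 128.9 CPM in obese libraries (log2 fold change -0.99, adjusted p = 0.0345), and in anti-PD-1 mice the value was -1.16 (adjusted p = 0.00364). Pdk4, a kinase that shuts glucose out of oxidation, fell in IgG2a mice from a mean of 288 ± 139 CPM (SD, n = 5) to 94.4 ± 52.7 CPM (SD, n = 5; -1.61, adjusted p = 0.0147). In anti-PD-1 mice edgeR's test did not call Pdk4, but DESeq2's test called it lower (-0.89, adjusted p = 0.0439). Anxa1, an anti-inflammatory annexin, rose in anti-PD-1 mice from 139.2 ± 64.1 CPM (SD, n = 5) to 484.5 ± 216.6 CPM (SD, n = 8; 1.80, adjusted p = 0.0107). In IgG2a mice Anxa1 was not called by edgeR's test, but DESeq2's test called it higher (1.23, adjusted p = 0.0433). Of the others, Hif3a rose under both antibodies, Per1 and Irs2 rose in anti-PD-1 mice and Glul fell in IgG2a mice.

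Among 14 genes of receptor partners and steroid handling, 1 rose and 1 fell in IgG2a mice, and 3 rose and 3 fell in anti-PD-1 mice. Fkbp4, a co-chaperone that competes with the Fkbp5 product for the receptor complex, fell in obese anti-PD-1 mice from 188.2 ± 29.8 CPM (SD, n = 5) to 84.5 ± 10.9 CPM (SD, n = 8; -1.16, SE 0.20, adjusted p = 0.000969). In IgG2a mice Fkbp4 was 157.7 ± 30.4 and 168 ± 69.8 CPM (SD, n = 5 each; 0.09, adjusted p = 0.914). Between antibodies in obese mice, edgeR's test called Fkbp4 lower with anti-PD-1, as 1 of 107 genes (0.538%), while voom called none. The interaction of diet and antibody was called for no gene by edgeR's test. Bag1, a chaperone regulator, fell under both antibodies (-0.95, adjusted p = 0.0345, and -1.47, adjusted p = 0.000286). Ncoa2, a receptor coactivator, rose in anti-PD-1 mice (0.81, adjusted p = 0.00843), as did Ncor1 and H6pd, whose product supplies cofactor to the Hsd11b1 enzyme (1.42, adjusted p = 0.0490), while Ptges3 fell. Serpina6, the gene of the corticosteroid-binding globulin made by liver, was called higher in IgG2a mice, where it was at 0 in every lean library. The obese IgG2a libraries had a Serpina6 median of 0.225 CPM and a highest value of 32.55 CPM, so 1 library held nearly all of it. Liver markers were high in obese IgG2a 5, and Serpina6 was not fitted without that library.

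Of 7 tested genes of zinc and metal handling (8 listed), 2 rose in IgG2a mice and 1 in anti-PD-1 mice. With anti-PD-1 against IgG2a in obese mice 1 of the 7, Slc39a14, was called lower, where 0.538% of all genes were called. Hmox1, which breaks down heme, rose from 26.3 ± 5.39 to 93.7 ± 37.5 CPM in IgG2a mice (SD, n = 5 each; 1.83, adjusted p = 0.00175). It rose from 23.2 ± 5.02 (SD, n = 5) to 53.7 ± 26.1 CPM (SD, n = 8; 1.21, adjusted p = 0.0120) in anti-PD-1 mice. Slc39a14, a zinc and iron importer, rose in IgG2a mice (2.18, adjusted p = 0.00675), where the obese libraries ran from 11.5 through 43.2 to 163.5 CPM. This obesity call of Slc39a14 was lost by voom (1.56, adjusted p = 0.0824), on log2(TPM + 1) (1.80, adjusted p = 0.0809), on log2(TPM + 0.1) (1.98, adjusted p = 0.0880) and with the IgG2a groups alone (2.13, adjusted p = 0.0890). It was also lost among libraries of high B cell score (4 lean and 2 obese), where the value was 0.02 (adjusted p = 0.970). Among libraries of low B cell score the value was 2.78, with only 1 lean library. Macrophage markers moved alongside: their score was 5.49 to 6.31 in obese and 4.63 to 5.32 in lean IgG2a libraries, and 2 of 7 were called. Neutrophil scores were 1.16 to 3.51 in obese and -0.26 to 0.2 in lean IgG2a libraries (1 of 5 tested markers called). Cell division scores were 3.21 to 5.87 and 2.21 to 4.35 (2 of 6 called). Liver scores were -2.29 to 8.88 and -1.89 to -0.76 (7 of 10 called). The part of these markers in the Hmox1 and Slc39a14 results was not tested.

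Of 11 genes of interleukin-6 signalling and the acute phase, 2 rose under each antibody. Il6ra, the interleukin-6 receptor chain, rose in both (0.92, adjusted p = 0.0379, and 1.20, adjusted p = 0.00315). Saa3 rose in IgG2a mice (4.21, SE 1.26, adjusted p = 0.0491), with obese values from 1.12 through 2.45 to 69.6 CPM. Hp rose in anti-PD-1 mice (1.64, adjusted p = 0.0383), with obese values from 154.9 through 1525 to 3711 CPM. None of 7 immediate early genes, which respond to handling and tissue collection, was called in either comparison by edgeR's quasi-likelihood test, with 1 at an unadjusted p under 0.05 in each. The smallest p among them belonged to Atf3 (1.13, adjusted p = 0.146, in IgG2a mice), and Egr1 was -0.69 there (adjusted p = 0.415). Averaged over antibodies Atf3 rose (1.10, SE 0.30, adjusted p = 0.0140), and in anti-PD-1 mice it was called by DESeq2's test (1.08, adjusted p = 0.0436) and without obese anti-PD-1 5 (1.22, adjusted p = 0.0483).

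Several of these calls lay near the threshold. With 1 library left out at a time, the call was lost in 9 of 10 fits for Cebpb, 7 of 10 for Bag1, 8 of 10 for Saa3 and 5 of 10 for Il6ra in IgG2a mice, and in 10 of 13 fits for Hp in anti-PD-1 mice. Their adjusted p reached 0.123 for Cebpb, 0.105 for Bag1, 0.114 for Il6ra and 0.0845 for Hp. On log2(TPM + 1) the IgG2a calls of Cebpb (-0.63, adjusted p = 0.175) and Bag1 (-0.58, adjusted p = 0.1944) were lost. The Il6ra call was lost with the IgG2a groups alone (0.89, adjusted p = 0.0973). The Hp call was lost by voom (1.25, adjusted p = 0.114). Among the fits with 1 library left out, Pdk4 lost its call only without lean IgG2a 1 (-1.31, adjusted p = 0.0589). The Pdk4 call was also lost on log2(TPM + 1) (-1.2, adjusted p = 0.12) and log2(TPM + 0.1) (-1.23, adjusted p = 0.1187). It was also lost with the IgG2a groups alone (-1.65, adjusted p = 0.0551). Without obese IgG2a 5 and lean anti-PD-1 4 together, the Pdk4 value was -1.53 (adjusted p = 0.0561). Without obese IgG2a 1, which held the highest Saa3 level, the Saa3 value was 2.05 (adjusted p = 0.273). The Saa3 call was also lost by voom (3.59, adjusted p = 0.1796) and without a filter (4.22, adjusted p = 0.0719). In low-score IgG2a libraries, with only 1 lean library, values were -1.41 for Pdk4, 0.46 for Saa3 and 1.68 for Hmox1. In low-score anti-PD-1 libraries the Hmox1 call was lost (1.29, adjusted p = 0.09765). The obesity call of Fkbp4 in anti-PD-1 mice was lost on log2(TPM + 1) (-0.59, adjusted p = 0.0708).

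With the epithelial score as a covariate, which cannot be told apart from diet, further calls of these lists were lost. In anti-PD-1 mice these were Fkbp4 (-0.80, adjusted p = 0.182), Bag1 (-1.05, adjusted p = 0.138), Cebpb (-0.73, adjusted p = 0.279), Ncoa2 (0.58, adjusted p = 0.260), Hmox1 (0.97, adjusted p = 0.237), Il6ra (0.90, adjusted p = 0.152) and Hp (1.96, adjusted p = 0.190). In IgG2a mice they were Bag1 (-0.64, adjusted p = 0.356), Cebpb (-0.67, adjusted p = 0.325), Il6ra (0.68, adjusted p = 0.292), Pdk4 (-1.51, adjusted p = 0.0915) and Saa3 (5.20, adjusted p = 0.0864). Against the main fit, the values of Hp and Saa3 were larger with this covariate, and the others were smaller. Among libraries of high B cell score alone, the calls in anti-PD-1 mice were lost for Anxa1 (0.96, adjusted p = 0.231), Ncoa2 (0.43, adjusted p = 0.297), Il6ra (0.76, adjusted p = 0.231), Fkbp4 (-0.77, adjusted p = 0.101) and Hmox1 (1.36, adjusted p = 0.0640), and Hp was -0.43 (adjusted p = 0.676). Hif3a, Per1, Irs2, Glul, Ncor1, H6pd and Ptges3 were not refitted under the alternatives.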

How the data were processed

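The libraries were oligo-dT selected and non-directional, per the labels' protocols. The deposited estimated counts and TPM per transcript are the authors' values. No versions stand beside edgeR, limma and GRCm38 in the submitters' processing notes, and which program estimated the transcripts is not stated there or in the labels. Of 115088 transcripts, 114200 matched GENCODE M21, and the other 888 held at most 0.208% of the counts of a library. Effective lengths were the same in all libraries.

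Estimated counts were summed per gene and rounded, and TPM were summed per gene. Genes were kept by filterByExpr (minimum count 10), scaled by TMM and fitted with 1 mean per group over all 23 libraries in edgeR 4.0.16 (R 4.3.3). The quasi-likelihood test was two-sided, with Benjamini-Hochberg adjustment, and a gene was called at an adjusted p under 0.05. SE is the absolute log2 fold change divided by the square root of F. Log2 CPM used a prior count of 2. limma 3.58.1, DESeq2 1.42.0 and scipy 1.17.1 served the alternatives and permutation tests. On simulated counts for obese against lean anti-PD-1 mice (19095 genes), 15 of 96 genes changed by a log2 of 1 and 49 of 92 changed by a log2 of 2 were recovered, with 2 false calls.

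The members and lists were chosen with earlier results of these data known. By rule, all members were named, and from each list the 3 called genes of smallest p in either obesity comparison, or 2 where none was called. Hif3a, Per1, Irs2, Glul, Ncor1, H6pd, Ptges3 and Serpina6 were named after their values were seen. The 38 alternatives included other tools, scalings, filters, covariates and each library left out. The diet by B cell set fit and 2 further alternatives were added after the data were seen. The labels name no batch, and nothing states more of the replicates than 1 mouse each. Depth limits counting error only, since estimated counts are not molecules.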

Additional observations from a re-analysis of the deposited data

Results flagged for a closer look

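In 8 of 36 groups of values tested, 1 library stood apart from the rest of its group by Dixon's test, where chance gives about 1 in 20. These were Fkbp5 in obese anti-PD-1 2 (152.5 CPM, highest), Tsc22d3 in lean anti-PD-1 1 (143 CPM, highest) and Mt1 in lean anti-PD-1 2 (112.8 CPM, highest). Nr3c1 stood apart in lean anti-PD-1 4 (69.65 CPM, lowest) and in lean IgG2a 5 (165.6 CPM, highest). Mt2 was highest in obese anti-PD-1 7 (115.2 CPM), which also had the highest number of Mt2 counts per Mt1 count (0.8348) of its group. That ratio was also far above its group in lean IgG2a 4 (0.3254).

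The obesity effect differed between libraries with a low and with a high B cell score for Zbtb16 (2.69 on the log2 scale, low minus high) and for Nr3c1 (0.97).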

How the results depend on the processing

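Of 96 results, each under its alternatives, 2319 values kept their direction and side of the threshold, 132 were no longer called, 43 became called, 88 changed sign and 20 moved. No paired analysis was possible because replicate numbers only follow accession order. The cause of the changes below was not tested. Fits with low B cell scores alone held 1 lean IgG2a library. In obese against lean IgG2a mice 4 members were called with the groups compared alone, with the B cell score or with the fat cell score as a covariate. In anti-PD-1 mice 2 were called with the epithelial score as a covariate or with high B cell scores alone, and 3 without obese IgG2a 5 and lean anti-PD-1 4, a fit added after the data were seen. Averaged over antibodies, 3 were called with the epithelial score as a covariate or with low B cell scores alone. DESeq2 called 1 member for antibody in lean mice and 1 for the interaction. Among transcript shares 1 was called with shares of estimated counts, where Fkbp5-201 in IgG2a mice was 0.662 points higher in obese mice, and 0 to 3 with 1 library left out (Fkbp5-201 in IgG2a mice, -4.72 to 1.24).

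Log2 fold changes that turned sign in IgG2a mice were Nr3c1 (-0.01 by voom, -0.02 with the groups compared alone, -0.14 with the B cell covariate, -0.42 with high and -0.15 with low B cell scores, -0.02 without those 2 libraries), Mt1 (0.02 on log2(TPM + 1) and log2(TPM + 0.1), 0.06 with the epithelial covariate, 0.18 with high B cell scores), Tsc22d3 (-0.47 with the epithelial covariate, -0.02 with low B cell scores) and Zbtb16 (-1.01 with high B cell scores). With high B cell scores alone Ncoa2 (-0.29) and Atf3 (-0.35) turned, with low ones Egr1 (0.98), and Fkbp4 was -0.01 by voom, -0.21 with high B cell scores and -0.10 without the 2 libraries. In anti-PD-1 mice these were Zbtb16 (-0.91) and Hp (-0.43) with high B cell scores, Sgk1 (-0.35), Mt1 (-0.04), Slc39a14 (-0.13) and Saa3 (-0.56) with low ones, and Egr1 on log2(TPM + 1) (0.05) and log2(TPM + 0.1) (0.07). Averaged over antibodies they were Sgk1 (0.01 with length offsets, 0.37 and 0.38 on the TPM scales), Tsc22d3 (0.00 with the epithelial covariate), Zbtb16 (-0.96) and Nr3c1 (-0.19) with high and Mt1 (-0.60) with low B cell scores. For antibody in obese mice Mt2 was -0.08 by voom, -0.13, -0.06 and -0.15 with the B cell, epithelial and fat cell covariates, -0.22 with high B cell scores and -0.07 without the 2 libraries. On the TPM scales Fkbp5 was 0.01 and 0.02, Hsd11b1 0.07 and Mt1 0.06, and Mt1 was 0.14 with low B cell scores. For the interaction Zbtb16 was 0.38 by voom, 0.44 and 0.48 on the TPM scales, 0.19 with the epithelial covariate and 0.10 with high B cell scores, and Hsd11b1 was -0.16 with the fat cell covariate.

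With 1 library left out, these spanned 0: in IgG2a mice Tsc22d3 (-0.03 to 0.43), Nr3c1 (-0.10 to 0.15) and Fkbp4 (-0.06 to 0.31), in anti-PD-1 mice Sgk1 (-0.02 to 0.32), and averaged Mt1 (-0.04 to 0.17). So did Hsd11b1 (-0.19 to 0.14), Mt1 (-0.32 to 0.02) and Mt2 (-0.25 to 0.20) for antibody in obese mice, and Zbtb16 (-0.45 to 0.35) and Mt2 (-0.02 to 0.60) for the interaction.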

Other observations

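The genes whose levels ran most closely with each member are given as descriptions, over 23 libraries that share their sets of high and low B cell score and their depth (Pearson r of log2 CPM with group means subtracted, among genes with a mean of at least 4 CPM). Zbtb16 was closest to Irs1 (r = 0.974), Mbnl2 (0.972) and Unc13b (0.970), and Nr3c1 to Wdr7 (0.964), Fbxl20 (0.951) and Zyg11b (0.948). Mt1 was closest to Mapkapk5 (0.911), Zfp637 (0.866) and Cd63 (0.863), and Mt2 to S100a6 (0.819), Hyal2 (0.798) and Cstb (0.787). None of these genes was listed for both metallothioneins. For Tsc22d3 the closest were Plbd1 (0.872), Skiv2l (0.833) and Ccdc71l (0.828), and for Hsd11b1 Glt8d1 (0.869), Cyren (0.867) and Ercc1 (0.838). Values were lower for Sgk1, with Pick1 (0.719), Tyw5 (0.715) and Cnep1r1 (0.701), and for Fkbp5, with Ccdc117 (0.635), Arhgdia (0.588) and Gcc1 (0.574).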
